A study of Mus musculus with 9 samples.

Results

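The 7 cholesterol synthesis enzymes Hmgcs1, Idi1, Fdps, Fdft1, Sqle, Cyp51 and Dhcr7 were followed through all 9 bulk RNA-seq libraries of dissected mouse substantia nigra. They were chosen by name, with earlier results of these data known, and each symbol was matched to its gene ID in the GENCODE M21 annotation. All 7 were found among the 55450 genes of the count tables, and all 7 passed the filter on low counts that left 20892 genes for testing. The group means of the 7 genes were higher in both groups that had received a Synuclein-expressing vector than in the GFP control group, by folds of 1.22 to 1.98 in one and 1.40 to 1.84 in the other. The 1.98 and the 1.40 are values of Fdps, which rests on 12 to 51 reads a library and is uncertain.

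The libraries fell into 3 groups of 3, with the letters A, B and C as replicate names. The CTR libraries, the control, came from male CX3CR1-CreERT2 mice, in which a tamoxifen-dependent Cre is made from the Cx3cr1 locus of microglia and other myeloid cells, injected with a Cre-dependent lentivirus for destabilized GFP. The CX3 libraries came from mice of the same Cre line, injected with a lentivirus in which the Ef1a promoter drives Synuclein only in cells with Cre. The DAT libraries came from DAT-Cre mice, in which Cre is made from the dopamine transporter locus Slc6a3, injected with that same Synuclein vector. Mice were 8 weeks old at injection by one statement of the study and 9 by another, tamoxifen was given for 4 days to the CX3CR1-CreERT2 mice, and tissue was taken 5 weeks after transduction. The DAT group therefore differed from CTR in Cre line and in tamoxifen as well as in the vector, and these cannot be told apart. Nothing in the sources used here says how many animals each library held, so p-values measure the spread between these libraries only. The vector's own transcript is not in the mouse gene annotation and was not measured.

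Cholesterol in the brain is made in place, because lipoproteins of the blood do not cross the blood-brain barrier. The pathway builds isoprene units from acetyl-CoA through mevalonate, joins them to squalene, folds squalene into lanosterol and trims lanosterol to cholesterol. Oligodendrocytes use much of it for myelin and astrocytes pass it to neurons on lipoproteins. The enzymes share a transcriptional control, since SREBP2, the product of Srebf2, is released from the endoplasmic reticulum by SCAP when sterols are low and is held there by INSIG proteins when sterols are high.

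Within that pathway Hmgcs1 makes HMG-CoA, and Idi1 interconverts both isoprene building blocks. Fdps joins them to farnesyl diphosphate, and Fdft1, squalene synthase, joins farnesyl units head to head. Sqle is squalene epoxidase, the first oxygen-dependent step of the sterol branch. Cyp51 removes a methyl group from lanosterol, and Dhcr7 reduces the last ring double bond on the way to cholesterol.

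The 7 genes lie on 6 chromosomes of GRCm38 (mm10), the build the submitters named. Hmgcs1 (ENSMUSG00000093930.2) is at chr13:119690379-119708260 on the plus strand, and Idi1 (ENSMUSG00000058258.14) is on the same strand at chr13:8885501-8892451. Fdps (ENSMUSG00000059743.12) is at chr3:89093588-89101959 on the minus strand. Fdft1 (ENSMUSG00000021273.10) is at chr14:63145150-63179578, minus strand. Sqle (ENSMUSG00000022351.14) is at chr15:59315077-59331192, plus strand. Cyp51 (ENSMUSG00000001467.5) is at chr5:4081145-4104746, minus strand, and Dhcr7 (ENSMUSG00000058454.15) is at chr7:143823145-143848410, plus strand.

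For 4 of the 7 genes the RefSeq table of promoters held an entry, and the 250 bases before the RefSeq start are shown here as a description. Any part of these sequences in the levels of the genes was not tested. The build is GRCm38.p6, and each sequence is given 5′ to 3′ on the strand of its gene. Hmgcs1 is chr13:119690101-119690350 (plus), Idi1 is chr13:8885356-8885605 (plus), Cyp51 is chr5:4104698-4104947 (minus) and Dhcr7 is chr7:143822917-143823166 (plus, the nearest of 3 entries to the GENCODE start). Capitals mark a sterol regulatory element core, TCACNCCAC, the letters that SREBP proteins are known to bind, and the CCAAT box, CCAAT, that NF-Y binds beside them, on either strand.
Hmgcs1: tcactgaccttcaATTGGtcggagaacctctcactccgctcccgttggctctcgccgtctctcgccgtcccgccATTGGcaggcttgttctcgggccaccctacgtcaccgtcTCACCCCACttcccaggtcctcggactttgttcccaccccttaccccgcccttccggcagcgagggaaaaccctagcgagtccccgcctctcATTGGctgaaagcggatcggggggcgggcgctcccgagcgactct
Idi1: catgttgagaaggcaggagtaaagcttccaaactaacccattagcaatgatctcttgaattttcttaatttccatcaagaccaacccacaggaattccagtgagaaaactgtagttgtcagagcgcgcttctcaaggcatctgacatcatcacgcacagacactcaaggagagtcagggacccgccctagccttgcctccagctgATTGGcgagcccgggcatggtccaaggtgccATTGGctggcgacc
Cyp51: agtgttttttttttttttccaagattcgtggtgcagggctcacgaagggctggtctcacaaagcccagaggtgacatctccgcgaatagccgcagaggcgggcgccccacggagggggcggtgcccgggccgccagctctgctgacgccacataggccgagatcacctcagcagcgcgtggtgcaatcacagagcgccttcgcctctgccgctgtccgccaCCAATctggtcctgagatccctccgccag
Dhcr7: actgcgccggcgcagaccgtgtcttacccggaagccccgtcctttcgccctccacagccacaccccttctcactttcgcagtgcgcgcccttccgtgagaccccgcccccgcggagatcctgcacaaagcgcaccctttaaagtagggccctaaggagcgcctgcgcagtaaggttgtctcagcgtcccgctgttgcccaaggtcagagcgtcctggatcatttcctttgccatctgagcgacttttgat

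Hmgcs1 alone of these 4 held the sterol element core, as TCACCCCAC from base -137 to -129 before the start. Across all 32851 RefSeq promoters of the same length, 1.05% held those letters. A CCAAT box was in 3 of the 4, with 3 in Hmgcs1, 2 in Idi1 and 1 in Cyp51, against 33.8% of all promoters. None was in the Dhcr7 window. The GC box GGGCGG, searched on both strands, was in 4 of 4 against 32.7% of all promoters, and the E-box CACGTG was in 0 of 4 against 6.02%. Of 14 other genes of the pathway with an entry, 0 held the sterol core, 12 a CCAAT box, 12 a GC box and 2 an E-box. A match is a stretch of letters and not a measured binding site.

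Before the levels of the 7 genes, the libraries were compared with their labels by fixed marker genes. The marker values, given below, did not settle whether the labels are right. Total counts on genes were 29378008 to 35595813 in CTR, 32892827 to 36586743 in CX3 and 21592817 to 39475428 in DAT. Levels are given as CPM, read counts scaled by the library's total on genes and by a TMM factor, which centres most genes on no change. Library DAT B stood apart from DAT A and DAT C, with squared differences between libraries of 20.5 and 14.9 times the sampling noise, against 1.51 to 7.72 within CTR and CX3. No pair of libraries agreed within sampling noise, though the CTR pairs came close, at 1.51 to 1.94 times. Such a spread cannot tell separate animals from repeat libraries of the same tissue. Each library was counted as 1 sample by its label.

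Marker levels moved with the groups, and so with every result below. The dopaminergic neuron markers Slc6a3 (130 CPM) and Th (81.6 CPM) were present in CTR, as nigral tissue should have. In the libraries labelled CX3, Slc6a3 was at 195.5 and Th at 100.6 CPM, and in those labelled DAT they were at 91.1 and 68.4 CPM. Cx3cr1, the locus that carries Cre in both CTR and CX3 mice by the study's account, was at 102 CPM in CTR, 44.6 in CX3 and 83.4 in DAT. Summed over 8 microglial markers the level was 1227 to 1247 CPM in CTR, 838 to 856 in CX3 and 657 to 694 in DAT. The 8 astrocyte markers summed to 7092 to 7098, 4543 to 4792 and 5048 to 5282 CPM in the same order, and 10 oligodendrocyte and myelin markers to 21180 to 21280, 22290 to 22660 and 15470 to 16450 CPM. Astrocytes and oligodendrocytes, both known for cholesterol synthesis, thus gave less marker RNA in DAT than in CTR.

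The 6 markers of oligodendrocyte precursors summed to 231 to 233 CPM in CTR, 177 to 188 in CX3 and 251 to 270 in DAT. The 8 dopaminergic markers were at 862 to 871, 1046 to 1066 and 676 to 690 CPM, and 7 neuronal markers at 4030 to 4058, 4159 to 4289 and 5496 to 5610 CPM. Endothelial markers (6 genes) were at 271 to 272, 347 to 353 and 343 to 350 CPM. Markers of tissue that lies outside the nigra also moved. The 6 choroid plexus markers went from 46.5 to 47.5 CPM in CTR to 1475 to 1584 in CX3 and 874 to 1044 in DAT, and the 5 pituitary markers from 61.1 to 63.8 CPM in CTR to 5.89 to 6.10 in CX3 and 18.3 to 23.5 in DAT. The 5 erythroid markers were at 242 to 267, 94.5 to 108 and 187 to 266 CPM, and the 6 T cell markers at 46.9 to 47.6, 37.4 to 41.1 and 11.3 to 12.2 CPM. The study reports several T cell genes as strongly higher in the tissue of the CX3 mice, while this T cell sum was lower in CX3 than in CTR. No marker was at 0 in every library. The part of these shifts in the results on the 7 genes was not tested, and in whole tissue fewer cells of a type and less RNA per cell cannot be told apart.

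Per kilobase of exon, the CTR level was highest for Hmgcs1, at 28.6 CPM per kb. Cyp51 (16.3), Fdft1 (14.4) and Sqle (8.53) followed, then Idi1 (4.69) and Dhcr7 (3.81). Fdps was listed at 0.127 CPM per kb, but this value covers only a small part of its RNA. Of its principal transcripts, Fdps-201 shares 76.4% and Fdps-203 81.3% of its bases with Gm43738, a gene on the same strand, and reads that fall in both genes were not counted for either. Fdps rests on 12 to 51 reads a library, and its values below are uncertain for that reason.

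The other genes are less exposed to shared sequence. Over the exons of all its transcripts together, Fdps shared 26.7% of its bases. On that measure the share was 18.3% for Fdft1 (with Ctsb on the opposite strand) and 12.1% for Hmgcs1 (Gm48342). It was 9.22% for Idi1 (Gm48574) and 3.76% for Cyp51 (Akap9), and none of Sqle or Dhcr7 was shared. By principal transcript, the measure given above for Fdps, the share reached 27% in Fdft1, 17.2% in Hmgcs1, 10.7% in Idi1 and 4.22% in Cyp51. Reads fell on both strands in near equal parts, 49.8% to 49.9% on the reverse strand, so an antisense partner could not be separated by strand.

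Hmgcs1, at the entry to the mevalonate pathway, stood at 130, 131.8 and 131.7 CPM in CTR libraries A, B and C. It stood at 186.9, 192.8 and 187.6 CPM in CX3, and at 200.2, 217.7 and 200.2 CPM in DAT. The 3 groups did not overlap, with CTR lowest and DAT highest, and DAT B was the highest library. The fold over CTR was 1.44 in CX3 (log2 difference 0.53 ± 0.04 SE, adjusted p = 8.27e-07) and 1.57 in DAT (0.65 ± 0.04, adjusted p = 1.81e-08). Here and below, adjusted p is from edgeR's quasi-likelihood test over all genes tested, with Benjamini-Hochberg adjustment and n = 3 a group.

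Idi1, the isomerase, stood at 16.9, 16.3 and 16 CPM in CTR, 30.2, 31 and 30.5 CPM in CX3, and 24, 23.5 and 25.2 CPM in DAT. It was the gene of the 7 with well-supported counts that was highest in CX3, above every DAT library. Its log2 difference from CTR was 0.90 ± 0.05 in CX3 (edgeR adjusted p = 2.42e-08) and 0.56 ± 0.06 in DAT (edgeR adjusted p = 8.93e-07), folds of 1.86 and 1.48.

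Fdps, as far as its unshared part was counted, stood at 0.394, 0.577 and 0.633 CPM in CTR, 1.32, 0.953 and 0.911 CPM in CX3, and 0.685, 0.905 and 0.702 CPM in DAT. The DAT libraries lay between both other groups, with narrow gaps, and CX3 A was far above CX3 B and C. The log2 difference from CTR was 0.98 ± 0.26 in CX3 (edgeR adjusted p = 0.0102) and 0.48 ± 0.29 in DAT (edgeR adjusted p = 0.165), so only the first was called. Without CTR A the CX3 difference was 0.81 and was no longer called (edgeR adjusted p = 0.0526), and on reverse-strand reads alone it was 0.72 (edgeR adjusted p = 0.131).

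Fdft1, squalene synthase, stood at 61.7, 59.2 and 61.1 CPM in CTR, 80.4, 78.9 and 78.7 CPM in CX3, and 84.1, 92.3 and 87.6 CPM in DAT. Groups did not overlap, and the lowest DAT library was close to the highest CX3 library. The log2 difference from CTR was 0.39 ± 0.05 in CX3 (edgeR adjusted p = 2.82e-05) and 0.54 ± 0.05 in DAT (edgeR adjusted p = 2.57e-07).

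Sqle, the epoxidase, stood at 45.9, 47.4 and 48.7 CPM in CTR, 63.1, 58.4 and 60.3 CPM in CX3, and 85.5, 89.6 and 86.8 CPM in DAT. The DAT libraries lay well above both other groups. The log2 difference from CTR was 0.36 ± 0.05 in CX3 (edgeR adjusted p = 7.93e-05) and 0.88 ± 0.05 in DAT (edgeR adjusted p = 2.03e-09), folds of 1.28 and 1.84.

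Cyp51, the demethylase, stood at 71.8, 70.5 and 73.4 CPM in CTR, 88, 94 and 90.9 CPM in CX3, and 98.2, 108.2 and 101.7 CPM in DAT. The groups stood in the same order as for Hmgcs1 and Fdft1, without overlap. The log2 difference from CTR was 0.34 ± 0.05 in CX3 (edgeR adjusted p = 0.00013) and 0.51 ± 0.05 in DAT (edgeR adjusted p = 5.91e-07).

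Dhcr7, the reductase at the end of the pathway, stood at 22, 21.2 and 23.1 CPM in CTR, 27.8, 25.7 and 27.6 CPM in CX3, and 40.3, 37 and 38.8 CPM in DAT. It had the smallest difference of the 7 in CX3 and one of the larger in DAT. The log2 difference from CTR was 0.29 ± 0.06 in CX3 (edgeR adjusted p = 0.0019) and 0.81 ± 0.06 in DAT (edgeR adjusted p = 3.24e-08), folds of 1.22 and 1.75.

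**Figure D1:**
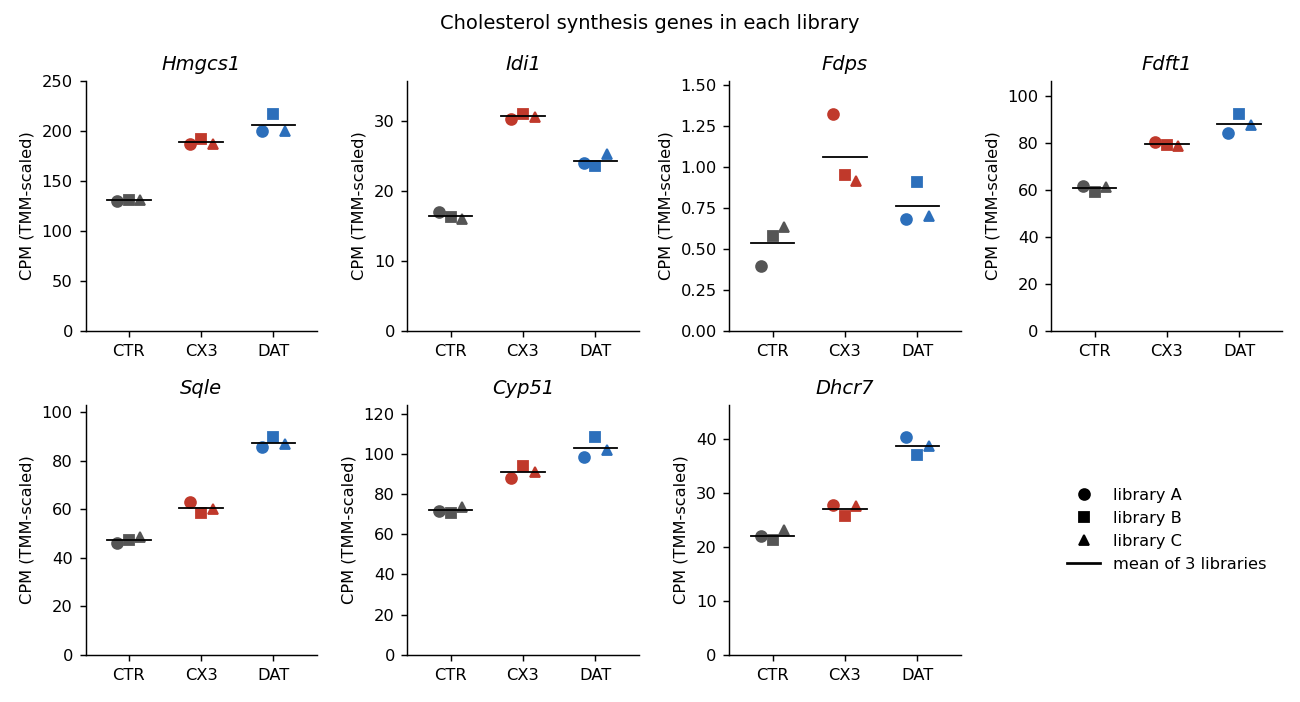
Level of each of the 7 genes in each library, in CPM on a linear axis from 0, with a marker per library and a bar at the mean of 3 libraries. The CTR libraries are lowest for all 7 genes, CX3 is highest for Idi1 and Fdps, and DAT is highest for the other 5.

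Counted together, 7 of 7 genes were higher in CX3 than in CTR, where 14.0% of all genes tested were called higher and 16.5% lower. For all 7, every CX3 library stood above every CTR library, which held for 23.9% of genes. Their median log2 difference was 0.39, beside 0.00 over all genes. Against the stricter null of a fold of at most 1.2, 4 of 7 (Hmgcs1, Idi1, Fdps and Fdft1) passed, where 3.16% of genes did so as higher. In DAT, 6 of 7 were higher than in CTR, where 32.0% of genes were called higher and 27.9% lower, so the background was far larger. Every DAT library stood above every CTR library for 7 of 7 genes and for 33.5% of all genes. The median log2 difference of the 7 was 0.56 beside 0.00, and 6 of 7 passed the fold of 1.2, as 20.5% of genes did. Without DAT B the count in DAT was also 6. The summed level of the 7 genes was 347 to 355 CPM in CTR, 476 to 482 CPM in CX3 and 533 to 569 CPM in DAT, and both comparisons use the same CTR libraries.

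Between the vector groups the genes did not move as a set. In CX3 against DAT, Idi1 alone was higher, with a log2 difference of 0.34 ± 0.05 (edgeR adjusted p = 7.19e-05), where 27.6% of genes were called higher. Lower in CX3 were 5 genes, where 31.3% of genes were. Sqle (-0.53 ± 0.05, edgeR adjusted p = 3.32e-07) and Dhcr7 (-0.52 ± 0.06, edgeR adjusted p = 2.22e-06) had the largest such differences, each passing the fold of 1.2. Hmgcs1 (-0.12 ± 0.04, edgeR adjusted p = 0.0262), Fdft1 (-0.15 ± 0.05, edgeR adjusted p = 0.0137) and Cyp51 (-0.17 ± 0.05, edgeR adjusted p = 0.00673) differed by less. With library size alone as scaling, those 3 turned to 0.07, 0.05 and 0.02 and were not called. Fdps was 0.50 ± 0.25 (edgeR adjusted p = 0.104). The median of the 7 was -0.15, beside 0.01 over all genes.

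Base composition of the transcripts moved with the DAT comparison. Across the 20892 genes, which share libraries and are not independent, Spearman's rho between transcript GC content and the log2 difference was 0.35 for DAT minus CTR and 0.03 for CX3 minus CTR. With genes in 5 equal bins of GC content, the lowest bin had a median of -0.22 in DAT minus CTR and the highest 0.33. Idi1 (41.9% GC) and Hmgcs1 (43.1%) are the least GC-rich of the 7, and Dhcr7 (52.8%) and Fdft1 (51.8%) the most. With an offset for GC content and length, the counts stayed at 7 of 7 in CX3 and 6 of 7 in DAT, with medians of 0.40 and 0.68. In DAT minus CTR the value of Idi1 became 0.82, that of Dhcr7 0.68 and that of Fdft1 0.32. Between CX3 and DAT, the difference of Idi1 was then 0.01 (edgeR adjusted p = 0.894) and that of Fdft1 turned to 0.07 (edgeR adjusted p = 0.149), while Sqle (-0.36), Dhcr7 (-0.39), Hmgcs1 (-0.33) and Cyp51 (-0.17) were still called lower.

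**Figure D2:**
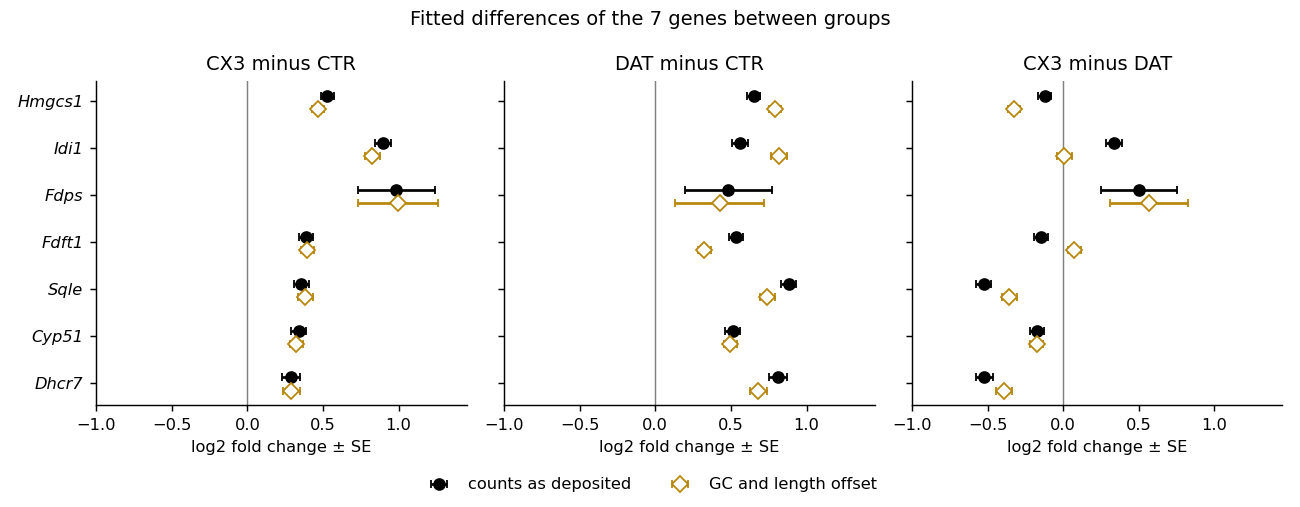
Fitted log2 fold changes of the 7 genes in the 3 comparisons, with bars of ± 1 SE, from counts as deposited (filled circles) and with an offset for GC content and length (open diamonds). In both comparisons with CTR all points lie to the right of 0, and for CX3 minus DAT the diamonds of Idi1 and Fdft1 lie at 0.01 and 0.07.

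A list of 16 further genes of cholesterol synthesis was tested, which does not include the 7. In CX3, 12 of 16 were higher than in CTR and 1 lower, and in DAT 12 were higher and 2 lower. Over all genes, as given above, 14.0% were called higher and 16.5% lower in CX3, and 32.0% higher and 27.9% lower in DAT. Their median log2 differences were 0.30 and 0.45, and 5 and 9 of them passed the fold of 1.2 as higher. Ebp, a sterol isomerase, was lower in both (-0.27 in CX3, edgeR adjusted p = 0.00642, and -0.28 in DAT, edgeR adjusted p = 0.00261), and Lbr, a sterol reductase that also anchors chromatin at the nuclear envelope, was lower in DAT (-0.25). Ebp and Lbr are named because they went against the list and were chosen after their values were seen.

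Mvk and Mvd, kinase and decarboxylase of mevalonate, were higher by 0.61 and 0.52 in CX3 and by 0.70 and 0.73 in DAT. With the offset for GC content and length they were higher by 0.57 and 0.43 in CX3 and by 0.46 and 0.42 in DAT. The larger values in DAT thus depended on the scaling for these genes. Hsd17b7, a sterol ketoreductase, was higher by 0.53 in CX3 and 0.84 in DAT, and by 0.50 and 0.85 with that offset. Between CX3 and DAT, 3 of the 16 were higher and 7 lower, beside 27.6% and 31.3% of all genes, and without DAT A 6 of the 16 were called in place of 10.

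**Figure D3:**
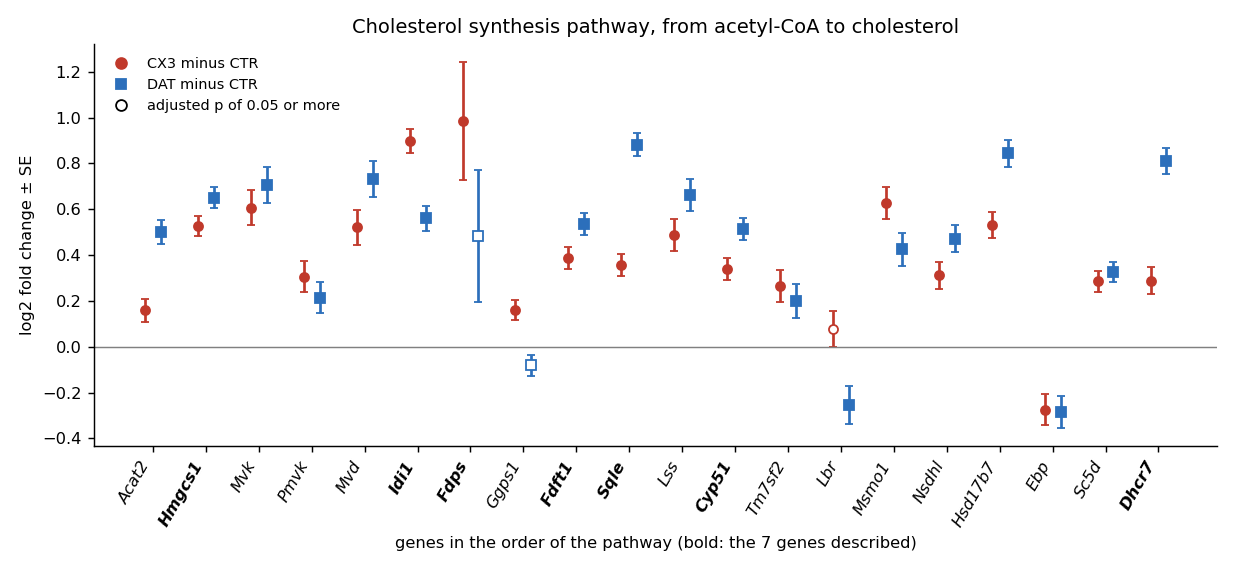
Log2 fold change ± SE of 20 tested enzymes in the order of the pathway, for CX3 minus CTR (circles) and DAT minus CTR (squares), with open symbols where the adjusted p was 0.05 or more. Of the points drawn, only those of Ebp in both comparisons and of Lbr and Ggps1 in DAT lie below 0, and the highest is Fdps in CX3 at 0.98.

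The genes that sense sterols differed between the vector groups. Insig1, an SREBP2 target that holds SCAP in the endoplasmic reticulum, was at 73.1 to 74.3 CPM in CTR, 128 to 129 in CX3 and 132 to 137 in DAT, the same order as Hmgcs1. Its log2 differences from CTR were 0.80 and 0.86 (edgeR adjusted p = 3.98e-09 and 4.31e-10). Srebf2 itself was higher in DAT (1.02 ± 0.05, edgeR adjusted p = 1.2e-09) and not called in CX3 (0.12 ± 0.05, edgeR adjusted p = 0.107), and Scap likewise (0.79 in DAT, and -0.05 in CX3 with edgeR adjusted p = 0.423). Srebf1, whose product favours fatty acid genes, went in opposite directions, lower in CX3 (-0.38) and higher in DAT (0.75). Of 11 genes of sterol sensing, 5 were higher and 2 lower in CX3, beside 14.0% and 16.5% of all genes, and 9 higher and 0 lower in DAT, beside 32.0% and 27.9%. Between CX3 and DAT, 0 were higher and 6 lower, beside 27.6% and 31.3% of all genes.

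Fatty acid synthesis is the other branch under SREBP control. Of its 11 genes, 10 were higher in DAT and 0 lower, beside 32.0% and 27.9% of all genes, with a median log2 difference of 0.45. In CX3 4 were higher and 3 lower, beside 14.0% and 16.5%, with a median of 0.03. Fasn, fatty acid synthase, was at 161 to 164 CPM in CTR, 131 to 138 in CX3 and 360 to 468 in DAT. Its log2 difference was -0.27 in CX3 (edgeR adjusted p = 0.0169) and 1.40 in DAT (edgeR adjusted p = 2.08e-09). Acly, which makes the cytosolic acetyl-CoA that both pathways use, was lower by 0.34 in CX3 and higher by 0.72 in DAT. Acaca and Acacb, the acetyl-CoA carboxylases, were higher in DAT (0.55 and 0.69) and were -0.18 and -0.03 in CX3, not called. Between CX3 and DAT 9 of the 11 were lower and 0 higher, beside 31.3% and 27.6% of all genes.

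Genes of cholesterol export and of uptake, storage and turnover handle sterols that are already made. In CX3, 0 of 9 export genes were higher than in CTR and 5 were lower, and 0 of 12 uptake and turnover genes were higher and 6 lower, where 14.0% of all genes were higher and 16.5% lower. In DAT the counts were 2 higher and 4 lower of 9, and 5 higher and 7 lower of 12, where 32.0% of all genes were higher and 27.9% lower. Abca1, the efflux transporter that lipidates lipoproteins, was at 120 to 129 CPM in CTR, 60.7 to 73.1 in CX3 and 84.1 to 109 in DAT, with log2 differences of -0.89 and -0.31. Abcg1, its partner in efflux, was lower in CX3 (-0.54) and higher in DAT (0.50). Abcg4, a related transporter, was higher in DAT (0.82) and 0.02 in CX3, not called, and Apod, a lipocalin made by glia, was lower in both (-0.34 and -0.81). The astrocyte marker sum was also lower in CX3 and DAT than in CTR, and its part in these values was not tested.

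In the uptake and turnover list, Npc1, which releases cholesterol from lysosomes, was lower in CX3 (-0.71) and higher in DAT (0.45). Lrp1, a receptor for lipoproteins, was higher in DAT (1.202) and -0.10 in CX3, not called. Cyp7b1, an oxysterol hydroxylase, was lower in both (-0.64 and -0.85), and Cyp46a1, the neuronal enzyme that turns cholesterol into a form that leaves the brain, was higher in DAT (0.62) and -0.01 in CX3, not called. Between CX3 and DAT, 1 export gene was higher and 4 lower, and 4 uptake and turnover genes were higher and 8 lower, where 27.6% of all genes were higher and 31.3% lower.

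Mevalonate products also feed protein prenylation, dolichol and ubiquinone. Of 11 genes of these branches, 3 were higher and 0 lower in CX3, beside 14.0% and 16.5% of all genes, and 6 higher and 2 lower in DAT, beside 32.0% and 27.9%. In CX3 against DAT, 3 were higher and 6 lower, beside 27.6% and 31.3%, so several of these counts are near the share of all genes. Icmt, which methylates prenylated proteins, was higher in both (0.24 and 0.67). Fntb, a farnesyltransferase subunit, and Dolk, dolichol kinase, were higher in DAT (0.68 and 0.46) and -0.05 and -0.17 in CX3, not called. Pdss1, which builds the ubiquinone tail, was lower in DAT (-0.91) and -0.04 in CX3, not called.

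**Figure D4:**
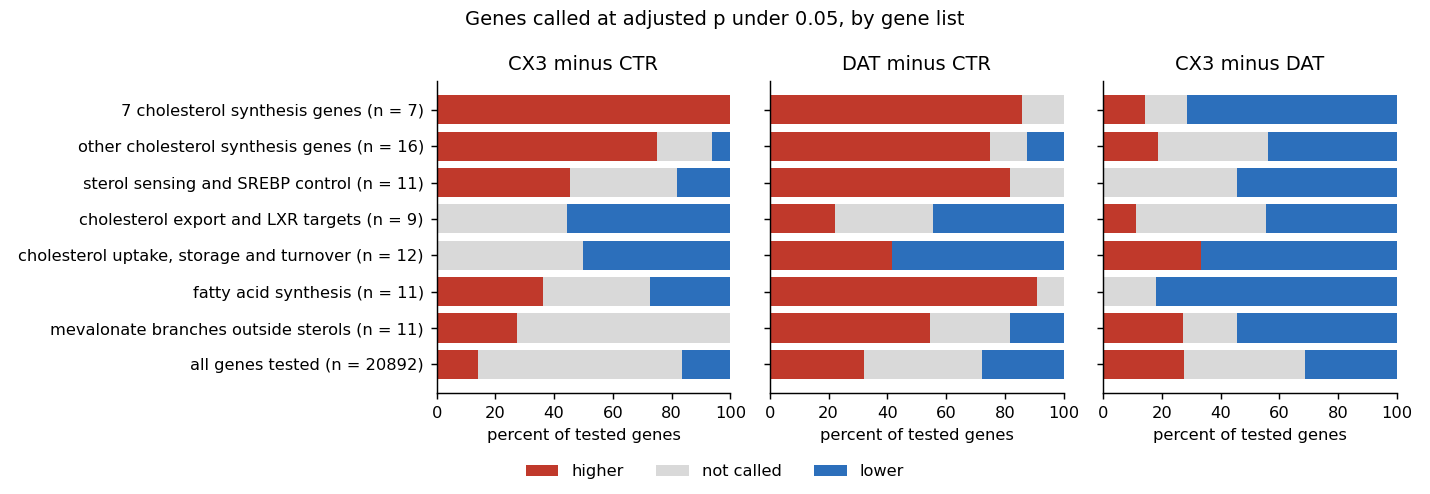
Percent of tested genes called higher, not called or called lower at an adjusted p under 0.05 in each gene list, for the 3 comparisons, with all 20892 genes as the lowest bar. The 7 genes are all called higher in CX3 minus CTR, while no export or uptake gene is, and in DAT minus CTR fatty acid synthesis is called higher in 10 of 11 genes.

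Genes with the most similar pattern were sought over the 9 libraries, by Pearson's r with the mean standardised log2 CPM of the 7, among 12107 protein-coding genes. The libraries form 3 groups, so r mostly reads the order of the group means and is given as a description. The 8 highest were Deaf1 (r of 0.999), St6galnac6, Micu3, Cplx1, Pcp4l1, Cldn5, Clic6 and Tmcc2 (r of 0.988). Cldn5 is an endothelial tight junction gene and Clic6 a choroid plexus gene, and both belong to marker lists whose sums moved with the groups. The endothelial list was mixed. Of its 6 markers, 3 were higher and 1 lower than CTR in CX3, and 4 higher and 2 lower in DAT. Of 6 choroid plexus markers, 5 were higher and 0 lower in each. Over all genes, 14.0% were higher and 16.5% lower in CX3, and 32.0% and 27.9% in DAT. The log2 differences of Cldn5 and Clic6 were 1.202 and 1.503 in CX3 and 1.36 and 2.06 in DAT. Of the pathway's own genes, Mvd was ranked 42, Mvk 68, Sc5d 93, Nsdhl 121 and Hsd17b7 141, and Ebp, with r of -0.86, was ranked 11602.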

How the data were processed

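Nigral tissue was sequenced on an Illumina HiSeq with a stranded mRNA kit, in 3 CTR, 3 CX3 and 3 DAT libraries grouped by their labels. The deposited values are raw counts per gene: the authors trimmed reads and aligned them to mm10. The submitters' processing notes name Trimmomatic, STAR, featureCounts and DESeq2, with no version given in the sources used here, and the files have the layout of STAR's gene counts. Unstranded counts were used. Rows for unmapped, multimapping and ambiguous reads were left out, and reads outside genes were 9.29% to 9.46% of mapped reads in CTR, 7.89% to 8.97% in CX3 and 5.20% to 5.34% in DAT.

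All 9 libraries were fitted together in edgeR 4.0.16 (R 4.3.3) with TMM scaling, filterByExpr and the quasi-likelihood F test, with Benjamini-Hochberg adjustment over 20892 genes and a threshold of 0.05. A fold above 1.2 was tested with glmTreat. DESeq2 1.42.0 was an alternative. The other alternatives were 2 scalings, 2 filters, each strand, a replicate block, only the 2 groups compared, each library left out, and an offset for GC content and length chosen after seeing the data. The fits were tested on simulated data. A count of 3 in a library, the floor, is 0.0779 to 0.151 CPM, for counting error only.

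The 7 genes and the gene lists were chosen with earlier results of these data known. Beside the 7, up to 4 genes a list were named, those with the largest absolute log2 fold change among genes called, with some genes kept to list counts and not reported here by name, and the 8 protein-coding genes of at least 5 CPM that were most alike in pattern. Same-lettered libraries did not deviate together (correlations from -0.16 to 0.04), so letters were not taken as pairs.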

Additional observations from a re-analysis of the deposited data

Results flagged for a closer look

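The effects of both vector groups against the shared CTR libraries differed for 6 of the 7 genes, by the fitted CX3 minus DAT difference (edgeR, adjusted p under 0.05), a comparison in which 27.6% of all genes were called higher and 31.3% lower. That log2 difference was -0.12 for Hmgcs1, -0.53 for Sqle, 0.34 for Idi1, -0.15 for Fdft1, -0.17 for Cyp51 and -0.52 for Dhcr7. Those of Hmgcs1, Sqle, Cyp51 and Dhcr7 were called with the GC and length offset too, and those of Idi1 and Fdft1 were not. With library size alone as scaling, those of Hmgcs1, Fdft1 and Cyp51 turned and were not called, and under each of the other filters on low counts 3 of the 7 were called.

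In 5 genes of neighbouring lists the effects went in opposite directions, lower than CTR in CX3 and higher in DAT, and the CX3 minus DAT difference was called. It was -1.13 for Srebf1, -1.04 for Abcg1, -1.16 for Npc1, -1.67 for Fasn and -1.06 for Acly on the log2 scale. Groups of 3 libraries were too small for a test of single outlying libraries.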

How the results depend on the processing

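In DAT minus CTR 6 of the 7 genes were called under every alternative run. In CX3 minus CTR 7 were called, except 6 on reverse-strand counts, 6 without CTR replicate A and 4 for a fold above 1.2. Under that fold the called numbers were 5 other cholesterol synthesis genes and 1763 of all genes in CX3 minus CTR, 9 and 8228 in DAT minus CTR, and 2 of the 7, 2 others and 7989 in CX3 minus DAT. In CX3 minus DAT, 3 of the 7 were called in place of 6 with genes of at least 1 count, and 3 with at least 10 counts in every library. Over the 9 left-out libraries the other synthesis genes called in CX3 minus DAT ranged from 6 to 9, in place of 10, and the 7 genes from 4 to 6. Library size alone turned Hmgcs1 to 0.0708, Fdft1 to 0.0463 and Cyp51 to 0.0201 in CX3 minus DAT, and the GC and length offset turned Fdft1 to 0.0738. The cause was not tested. That scaling moved the median log2 difference of all genes to 0.04, -0.15 and 0.20 in CX3 minus CTR, DAT minus CTR and CX3 minus DAT, and the share of calls that were higher from 45.9%, 53.4% and 46.8% to 58.9%, 37.8% and 66.7%. DESeq2 called 7, 6 and 6 of the 7, and 5396, 11871 and 11493 of all genes, beside 6367, 12520 and 12311 with edgeR. With the replicate block the calls were 7, 6 and 6 of the 7, and 5805, 12144 and 11955 genes. Of 420 recomputed log2 differences of the 7 genes, 384 kept direction and side of the threshold, 31 lost the call, 1 gained it and 4 turned. Fdps rests on 12 to 51 counts a library.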
